A study of Mus musculus with 20 samples.

Results

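The genes described here are 10 members of the bone morphogenetic protein (BMP) pathway in mouse kidney, namely the ligands Bmp4, Bmp6 and Bmp7, the secreted antagonist Grem1, the inhibitory Smads Smad6 and Smad7, and the Id genes Id1, Id2, Id3 and Id4. They were chosen by symbol from the 47069 Ensembl genes of the count table, and each symbol matched 1 gene. Id4 had been seen to differ between the 2 treatments in these same libraries, so its values in any comparison with treated mice are given as a description and carry no test. RNA from the kidneys of 20 male F1 mice (129SJ x C57Bl/6J) was sequenced at 15 weeks of age. The 5 WT mice carried intact Col4a3 and were left untreated. The other 15 mice were all Col4a3-/-, a germline model of Alport syndrome whose glomerular basement membrane lacks the collagen network that contains the α3(IV) chain. From 5 weeks of age, 6 of them received weekly subcutaneous PBS (Veh). A further 6 were injected each week with 50 mg/kg of lademirsen, an antisense oligonucleotide against miR-21 (Anti-miR-21). The other 3 also received weekly subcutaneous PBS and drank water with ramipril, an angiotensin-converting enzyme inhibitor, at 11 mg/L (ACEi). The library table instead gives ramipril at 4 mg/kg. WT mice thus differ from Veh mice both in genotype and in the injections.

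BMP ligands bind pairs of type I and type II serine/threonine kinase receptors, which phosphorylate Smad1, Smad5 and Smad9. These join Smad4 and enter the nucleus, where Id1 to Id4 and the inhibitory Smads are among the best known direct targets, so that Smad6 and Smad7 act as negative feedback. Secreted antagonists such as gremlin 1 hold ligands away from their receptors. Bmp7 is made by the tubular epithelium and podocytes of the adult kidney, and gremlin 1 is barely made in healthy adult kidney. Id proteins lack a DNA-binding region and sequester the basic helix-loop-helix (bHLH) factors with which they pair.

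The anti-miR-21 oligonucleotide is directed at the following mature miRNA, printed with the seed (bases 2 to 8) in capitals because Smad7 mRNA has been described as one of its targets.
mmu-miR-21a-5p: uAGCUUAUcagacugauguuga
It lies on the minus strand at chr11:86584120-86584141 (RefSeq, GRCm38.p6). RefSeq promoter windows of 300 bases, from 250 before to 50 after a gene's start, were found for 7 of the 10 genes (Bmp4, Bmp6, Grem1, Smad6, Id2, Id3 and Id4). The 250 bases before the start are shown for Id4, the gene that was seen to differ between the treatments, and for Grem1, the gene that differed most between Veh and WT. The capitals mark GGCGCC, the GC-rich core that Smad1 and Smad5 are known to bind.
Id4, chr13:48260866-48261115, plus strand: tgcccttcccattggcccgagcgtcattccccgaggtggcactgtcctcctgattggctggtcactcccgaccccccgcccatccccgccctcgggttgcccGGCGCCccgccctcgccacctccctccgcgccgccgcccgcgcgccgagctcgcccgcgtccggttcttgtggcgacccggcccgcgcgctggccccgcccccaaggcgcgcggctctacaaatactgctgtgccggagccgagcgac
Grem1, chr2:113758649-113758898, minus strand: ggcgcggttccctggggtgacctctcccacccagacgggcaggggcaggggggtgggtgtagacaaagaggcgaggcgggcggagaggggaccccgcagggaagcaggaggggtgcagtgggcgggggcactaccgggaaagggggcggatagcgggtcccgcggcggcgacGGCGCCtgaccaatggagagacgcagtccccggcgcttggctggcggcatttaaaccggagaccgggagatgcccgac
The window of Id2 also holds GGCGCC, and those of Bmp4, Bmp6, Smad6 and Id3 hold none. Of all 32851 promoter windows, 11.9% hold the motif. The spaced element, GGCGCC followed after 5 further bases by GTCT and searched on both strands, occurs in 0.0731% of all windows and in none of the 7. The Smad box GTCT is in 88.0% of all windows and in 6 of the 7, Id4 being the exception. Such matches describe letters and say nothing about binding.

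Libraries held between 28474301 and 29479629 estimated counts on genes, a narrow range, and came from flow cells A (13 libraries) and B (7 libraries). Levels below are in CPM, that is counts relative to a library size scaled with edgeR's TMM method, and a log2 fold change was called at an adjusted p under 0.05 in edgeR's quasi-likelihood test over the 17622 genes that passed the filter on low counts, among them all 10 genes. Col4a3 was at 193.8 to 237.5 CPM in WT mice and at 27.9 to 74.9 CPM in the Col4a3-/- mice. The protocol label names adipose tissue as the source of RNA while the tissue label names kidney. Markers of nephron segments were high in all libraries, with a summed level of 5 proximal tubule genes of 1190 to 12760 CPM. Summed adipocyte markers (Adipoq, Plin1, Cidec, Lep and Cfd) reached 351 to 410 CPM in the Veh mice A1, A4 and A9 and 224 CPM in the Anti-miR-21 mouse A12, against at most 56.0 CPM in the other 16 mice. Calls that were lost, or differences that changed sign, when those 4 mice were left out, a choice made after seeing the data, are given with both values. With scaling by library totals alone, the median change over all genes between Veh and WT moved from 0.07 to 0.65 on the log2 scale and the share of called genes that were higher moved from 53.4% to 81.2%. Between Anti-miR-21 and Veh that share moved from 48.6% to 20%, and between ACEi and Veh from 52.4% to 20.5%. For the 10 genes this scaling moved every log2 difference of Veh from WT up by 0.58 to 0.60, and those of Anti-miR-21 and ACEi from WT up by 0.24 to 0.27 and by 0.31 to 0.32. Since the tissue was bulk kidney, fewer cells of a type and less RNA per cell cannot be told apart.

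Disease moved the 10 genes in both directions. In Veh against WT mice, 8 of them were called, against 73.0% of all genes tested, so that being called was about as common as among genes at large. Bmp6, Grem1, Smad6, Smad7 and Id3 were higher and Bmp7, Id2 and Id4 were lower. Among all genes 39.0% were called higher and 34.0% lower. The groups did not overlap for Bmp7, Grem1, Id2, Id3 and Id4, 5 of the 10 genes, compared with 54.9% of all genes. The median log2 fold change was 0.25 over the 10 genes and 0.07 over all genes.

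Under anti-miR-21, 6 of the 9 genes tested were called against Veh (59.2% of all genes), with Bmp4, Bmp7 and Id2 higher (28.8% of all genes) and Smad6, Smad7 and Id3 lower (30.5%). The ranges of the groups were apart for Bmp7, Smad6, Id2 and Id3, 4 of the 10 genes, against 36.4% of all genes. Under ACEi, 5 of 9 were called (40.1% of all genes), with Bmp7 and Id2 higher (21.0%) and Smad6, Id1 and Id3 lower (19.1%). Here the ranges were apart for those 5 genes and for Bmp4, 6 of the 10, against 38.6% of all genes. Both comparisons share the Veh mice. Without the 4 mice high in adipocyte markers, 7 of 10 genes were called in Veh against WT (67.7% of all genes), 4 of 9 in Anti-miR-21 against Veh (46.4%) and 4 of 9 in ACEi against Veh (26.7%).

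**Figure D1:**
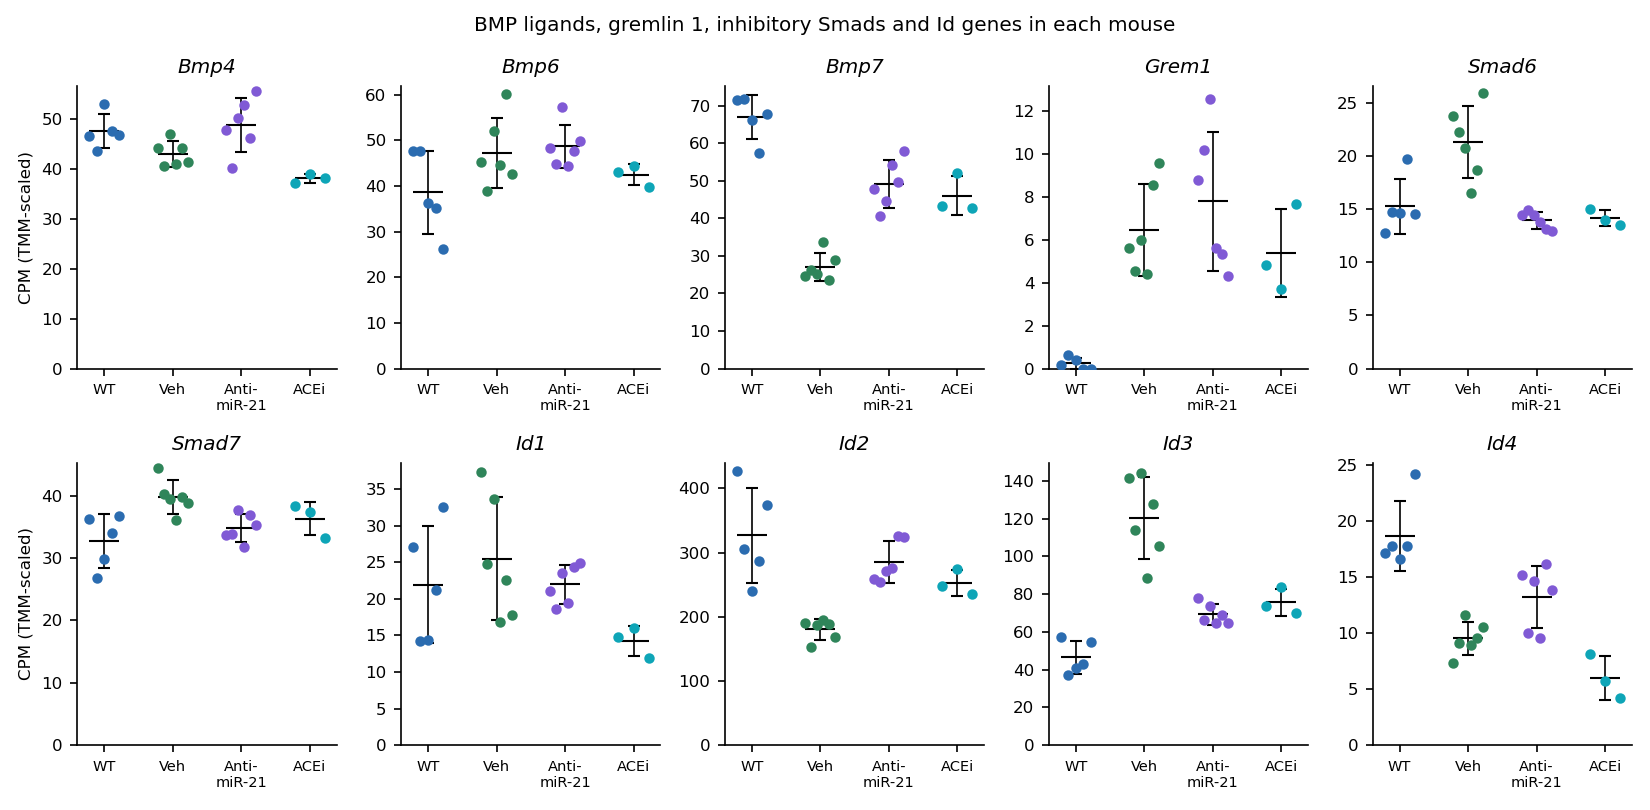
Level of each gene in each mouse, in TMM-scaled CPM on linear axes that start at 0, with 1 panel per gene and 1 point per mouse (5 WT, 6 Veh, 6 Anti-miR-21, 3 ACEi). The long bar is the group mean and the whiskers 1 SD; Bmp7 and Id2 are lower and Id3 and Grem1 higher in every Veh mouse than in any WT mouse, and 2 of the 3 ACEi mice hold the lowest Id4, at 5.69 and 4.19 CPM.

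Of the ligands, Bmp7 changed most. Bmp7 (ENSMUSG00000008999, chr2:172868012-172940321, minus strand) is an epithelial ligand known for opposing TGF-β1 in the kidney. Its level was 71.5, 71.8, 66.3, 57.4 and 67.9 CPM in the 5 WT mice, whereas Veh mice ranged from 23.6 to 33.7 CPM around a median of 25.7 CPM. Anti-miR-21 mice ranged from 40.5 to 58.0 CPM around 48.8 CPM, and the ACEi mice stood at 43.3, 52.1 and 42.8 CPM. Every treated mouse lay above every Veh mouse, and the ACEi mice and 5 of the 6 Anti-miR-21 mice lay below the lowest WT mouse. The WT mean of 67.0 ± 5.85 CPM (SD, n = 5) fell 2.48-fold in Veh, to 27.1 ± 3.74 CPM (SD, n = 6), with a log2 fold change of -1.31 (SE 0.10, adjusted p = 3.8e-10). Against Veh it rose 1.82-fold under anti-miR-21 (log2 0.86, SE 0.10, adjusted p = 3.3e-07) and 1.70-fold under ACEi (log2 0.77, SE 0.11, adjusted p = 4.1e-05). It remained below WT in both treated groups, by 1.36-fold under anti-miR-21 and by 1.46-fold under ACEi (adjusted p = 0.0012 for each), the latter being -0.22 with log2(FPKM + 0.1) (adjusted p = 0.054).

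Bmp4 and Bmp6 moved far less. Bmp4 (ENSMUSG00000021835, chr14:46383520-46390669, minus strand), a ligand needed for outgrowth of the ureter, was at 46.5, 43.6, 52.9, 47.4 and 46.7 CPM in WT, at 40.5 to 46.9 CPM (median 42.7) in Veh, at 40.2 to 55.6 CPM (median 48.9) under anti-miR-21 and at 37.1, 38.9 and 38.1 CPM under ACEi. The ACEi mice formed the lowest and tightest group, below all mice of the other groups, while WT and Veh overlapped. The log2 difference of Veh from WT was -0.14 (SE 0.07, adjusted p = 0.074). Bmp4 was 1.14-fold higher under anti-miR-21 than in Veh (log2 0.18, SE 0.07, adjusted p = 0.025), and ACEi differed from Veh by -0.17 (SE 0.08, adjusted p = 0.10). The anti-miR-21 call was lost without the adipocyte-rich mice (log2 0.21, adjusted p = 0.055) within flow cell A (log2 0.15, adjusted p = 0.19), with upper-quartile scaling (log2 0.10, adjusted p = 0.20) and without mouse A12 or A22. With library totals alone Bmp4 turned to 0.44 in Veh against WT and to -0.17 under anti-miR-21. Reads of Gm15217 and Gm15222, genes on the opposite strand that overlap Bmp4, cannot be told apart from its own unless the counting used strand, which is not given in the sources used here.

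Bmp6 (ENSMUSG00000039004, chr13:38345107-38500302, plus strand), known as the endothelial ligand that controls hepcidin in the liver, spread widely in WT, at 47.7, 47.7, 36.2, 35.2 and 26.2 CPM. Veh mice held 38.9 to 60.2 CPM (median 44.9), Anti-miR-21 mice 44.3 to 57.2 CPM (median 47.9) and ACEi mice 43.1, 44.3 and 39.8 CPM. All 4 groups overlapped with at least one other. Veh was 1.23-fold above WT (log2 0.29, SE 0.13, adjusted p = 0.049), and neither treatment differed detectably from Veh, with intervals of -0.22 to 0.30 for anti-miR-21 and -0.47 to 0.16 for ACEi on the log2 scale. The call against WT was lost when any of the mice A1, A9, A14, A17, A18 or A19 was left out (adjusted p of 0.17 without A18), without the 4 adipocyte-rich mice (log2 0.35, adjusted p = 0.059) and within flow cell A (log2 0.17, adjusted p = 0.27). DESeq2 (adjusted p = 0.053) and RLE scaling (adjusted p = 0.058) lost it as well. So did flow cell as a term (adjusted p = 0.051) and a fit of only the 2 groups compared (adjusted p = 0.082). With library totals alone ACEi was below Veh by 0.43 (adjusted p = 0.034). The gene's end overlaps Txndc5 on the opposite strand, whose counts of 2832 to 6540 exceed its own of 625 to 2190.

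Grem1 (ENSMUSG00000074934, chr2:113746164-113758646, minus strand), whose product gremlin 1 binds and blocks BMP2, BMP4 and BMP7, was almost absent from WT kidneys. WT mice held 4, 15, 9, 0 and 0 counts, or 0 to 0.615 CPM, whereas Veh mice held 143 to 340 counts and 4.41 to 9.59 CPM (median 5.79). Anti-miR-21 mice were at 4.30 to 12.5 CPM (median 7.20) and ACEi mice at 4.82, 3.69 and 7.67 CPM. All Col4a3-/- mice exceeded all WT mice, and the 3 Col4a3-/- groups overlapped. The log2 fold change of Veh over WT was 4.75 (SE 0.52, adjusted p = 7.2e-08), ranging from 4.43 without WT mouse A17 to 5.50 without WT mouse A6, and 3.95 within flow cell A, where no WT mouse was at 0. Neither treatment lowered Grem1 detectably. It differed from Veh by 0.27 (95% interval -0.44 to 0.99, adjusted p = 0.51) under anti-miR-21 and by -0.26 (95% interval -1.15 to 0.64, adjusted p = 0.66) under ACEi on the log2 scale. Against WT it stayed higher by 5.03 (SE 0.53, adjusted p = 2.6e-07) and by 4.49 (SE 0.57, adjusted p = 2.5e-06). The log2(FPKM + 1) scale understates low genes and rests on FPKM values that are compared with counts below. On that scale the difference of ACEi from WT was 0.35 (adjusted p = 0.26). On log2(FPKM + 0.1) it was 1.49 (adjusted p = 0.061). For Grem1 the deposited FPKM lay far below what the counts imply, in Veh and in both treated groups. ACEi mouse A23 had 225 Grem1 counts and 0.107 FPKM over 1639 exon bases. The same mouse had 396 Smad6 counts and 4.68 FPKM over 2971 exon bases. Grem1 was at 162 counts and 0.214 FPKM in Veh mouse A4, and at 150 counts and 0.105 FPKM in Anti-miR-21 mouse A12. The ACEi mice were also ranked differently, since A11 had 147 counts and 0.723 FPKM. Nothing is therefore read from the FPKM differences of Grem1. Why counts and FPKM differ here was not tested. In both treated groups Bmp7 lay closer to its WT level than in Veh, while the interval for Grem1 covered both a rise and a fall.

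Smad6 and Smad7, which block receptor and Smad activation, rose with disease. Smad6 fell under both treatments, whereas Smad7 was called lower only under anti-miR-21, and that call was lost when any of 8 mice was left out. Smad6 (ENSMUSG00000036867, chr9:63953076-64022059, minus strand), the inhibitor more selective for BMP signals, stood at 12.7, 14.7, 14.7, 19.7 and 14.6 CPM in WT and at 16.5 to 26.0 CPM (median 21.5) in Veh. Anti-miR-21 mice were between 12.99 and 14.9 CPM (median 14.1) and ACEi mice at 15.0, 14.03 and 13.5 CPM. Both treated groups lay wholly below Veh and inside the range of WT, and WT mouse A17 was the one WT mouse that reached into the Veh range. Veh was 1.40-fold above WT (log2 0.48, SE 0.11, adjusted p = 0.0005). Against Veh, Smad6 was lower by 0.61 on the log2 scale under anti-miR-21 (SE 0.10, adjusted p = 4e-05) and by 0.59 under ACEi (SE 0.13, adjusted p = 0.0013). From WT the treated groups differed by -0.13 (95% interval -0.36 to 0.10) and -0.11 (95% interval -0.38 to 0.17), and both values turned positive with library totals alone, to 0.11 and 0.20.

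Smad7 (ENSMUSG00000025880, chromosome 18), which inhibits both TGF-β and BMP receptors, was at 36.2, 26.8, 29.9, 34.1 and 36.7 CPM in WT, at 36.0 to 44.4 CPM (median 39.6) in Veh, at 31.7 to 37.7 CPM (median 34.5) under anti-miR-21 and at 38.3, 37.4 and 33.3 CPM under ACEi. All groups overlapped, with WT mice A3 and A18 inside the Veh range and the other 3 WT mice below it. Veh exceeded WT 1.22-fold (log2 0.28, SE 0.08, adjusted p = 0.0026). Smad7 fell by 0.19 on the log2 scale under anti-miR-21 (SE 0.07, adjusted p = 0.028), a call that was lost without any of the Veh mice A1 (adjusted p = 0.12), A4, A9, A19 or A20 or the Anti-miR-21 mice A2, A8 or A12, and without the 4 adipocyte-rich mice (log2 -0.09, adjusted p = 0.46). ACEi differed from Veh by -0.13 (95% interval -0.32 to 0.06, adjusted p = 0.25), and by -0.41 with library totals alone (adjusted p = 0.0035).

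The 4 Id genes did not move as one. Id3 rose in Veh, Id2 and Id4 fell, and Id1 was not called. Id3 (ENSMUSG00000007872, chr4:136143497-136145755, plus strand), an Id gene abundant in endothelial cells, was at 57.2, 37.1, 40.8, 42.9 and 54.4 CPM in WT and at 88.4 to 144.4 CPM (median 120.9) in Veh. It stood at 64.6 to 78.1 CPM (median 67.5) under anti-miR-21 and at 73.5, 83.6 and 70.0 CPM under ACEi. The treated mice all lay between the WT and the Veh mice without touching either. Veh was 2.59-fold above WT (log2 1.37, SE 0.13, adjusted p = 5.4e-09). Against Veh, Id3 was lower by 0.79 under anti-miR-21 (SE 0.12, adjusted p = 9.1e-06) and by 0.67 under ACEi (SE 0.15, adjusted p = 0.0013). It was above WT by 0.58 (adjusted p = 0.00098) and 0.70 (adjusted p = 0.00059) on the log2 scale.

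Id2 (ENSMUSG00000020644, chr12:25093799-25097140, minus strand), the most abundant Id gene, mirrored this pattern. WT mice held 426.8, 306.4, 239.7, 287.1 and 374.7 CPM, Veh mice 152.8 to 195.0 CPM (median 188.2), Anti-miR-21 mice 254.8 to 326.3 CPM (median 273.2) and ACEi mice 248.5, 273.9 and 234.8 CPM. Every treated mouse exceeded every Veh mouse, and both treated groups overlapped WT. Id2 fell 1.81-fold from WT to Veh (log2 -0.86, SE 0.12, adjusted p = 1.6e-06) and rose 1.58-fold under anti-miR-21 (log2 0.66, SE 0.11, adjusted p = 5e-05) and 1.40-fold under ACEi (log2 0.48, SE 0.14, adjusted p = 0.008). With library totals alone the difference of Veh from WT was -0.27 (adjusted p = 0.022) and that of ACEi from Veh 0.21 (adjusted p = 0.14), and with log2(FPKM + 1) these were -0.24 (adjusted p = 0.055) and 0.21 (adjusted p = 0.19). From WT, Id2 differed by -0.20 under anti-miR-21 (adjusted p = 0.19) and by -0.37 under ACEi (adjusted p = 0.039). The latter call was lost in 8 of 11 alternatives, among them library totals alone (log2 -0.06, adjusted p = 0.73), and without any of the mice A3, A11, A18 or A23.

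Id1 (ENSMUSG00000042745, chr2:152736251-152737410, plus strand), the Id gene most often used as a readout of BMP receptor activity, varied widely within WT and Veh. It was at 27.2, 14.2, 14.4, 21.3 and 32.6 CPM in WT, at 16.8 to 37.4 CPM (median 23.8) in Veh, at 18.7 to 24.9 CPM (median 22.3) under anti-miR-21 and at 14.8, 15.96 and 11.9 CPM under ACEi. The 3 ACEi mice lay below all Veh and Anti-miR-21 mice. The log2 difference of Veh from WT was 0.22 (SE 0.22, adjusted p = 0.37), and that of Anti-miR-21 from Veh was -0.21 (SE 0.21, adjusted p = 0.38). ACEi was 1.80-fold below Veh (log2 -0.84, SE 0.26, adjusted p = 0.015).

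The 3 Veh mice with the highest Id1, at 37.4 (A1), 33.7 (A9) and 24.9 CPM (A4), are the 3 Veh mice with the highest adipocyte markers, and the other 3 Veh mice were at 16.8 to 22.7 CPM. The Anti-miR-21 mouse A12, also high in adipocyte markers, had 19.5 CPM of Id1. Without these 4 mice the ACEi difference from Veh was -0.40 (adjusted p = 0.25), while the difference of Veh from WT turned to -0.20 (adjusted p = 0.45) and that of Anti-miR-21 from Veh to 0.26 (adjusted p = 0.37). Flow cell A holds all 4 of them, and within it Id1 in Veh was above WT by 0.68 (adjusted p = 0.017). The part of adipose tissue in the level of Id1 was not tested. With library totals alone Veh was above WT by 0.82 (adjusted p = 0.0021) and Anti-miR-21 below Veh, at -0.57 (adjusted p = 0.021). Leaving out ACEi mouse A23 alone also lost the ACEi call (adjusted p = 0.078).

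Id4 (ENSMUSG00000021379, chr13:48261228-48266026, plus strand), an Id gene known mainly from the nervous system and from stem cells, fell in Veh. It was at 17.2, 17.7, 16.6, 17.8 and 24.2 CPM in WT and at 7.35 to 11.6 CPM (median 9.31) in Veh, 1.96-fold lower (log2 -0.97, SE 0.16, adjusted p = 2.1e-05). The WT and Veh mice did not overlap, and the difference was -0.86 without WT mouse A18, the highest of all, -0.39 with library totals alone (adjusted p = 0.049) and -0.34 with log2(FPKM + 1) (adjusted p = 0.071). As a description with no test, Anti-miR-21 mice were at 15.2, 9.98, 14.7, 9.59, 16.2 and 13.8 CPM and ACEi mice at 8.10, 5.69 and 4.19 CPM. The Anti-miR-21 mice thus all exceeded all ACEi mice and all lay below WT, and 2 of the 6 lay within the Veh range. The ACEi mice A13 and A23 were below every Veh mouse. Group means were 18.7 ± 3.13 (SD, n = 5) in WT, 9.51 ± 1.46 (SD, n = 6) in Veh, 13.2 ± 2.78 (SD, n = 6) under anti-miR-21 and 5.99 ± 1.97 CPM (SD, n = 3) under ACEi. The log2 differences were 0.48 (SE 0.16) for Anti-miR-21 and -0.66 (SE 0.20) for ACEi from Veh, and 1.14 (SE 0.21) between the treatments. The last ranged from 0.94 without ACEi mouse A23 to 1.42 without ACEi mouse A11, and the first was 0.14 with library totals alone. Id4 had 123 to 577 counts per library. The antisense gene A330033J07Rik overlaps it with 12 to 78 counts, which cannot be told apart from Id4 reads unless strand was used.

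**Figure D2:**
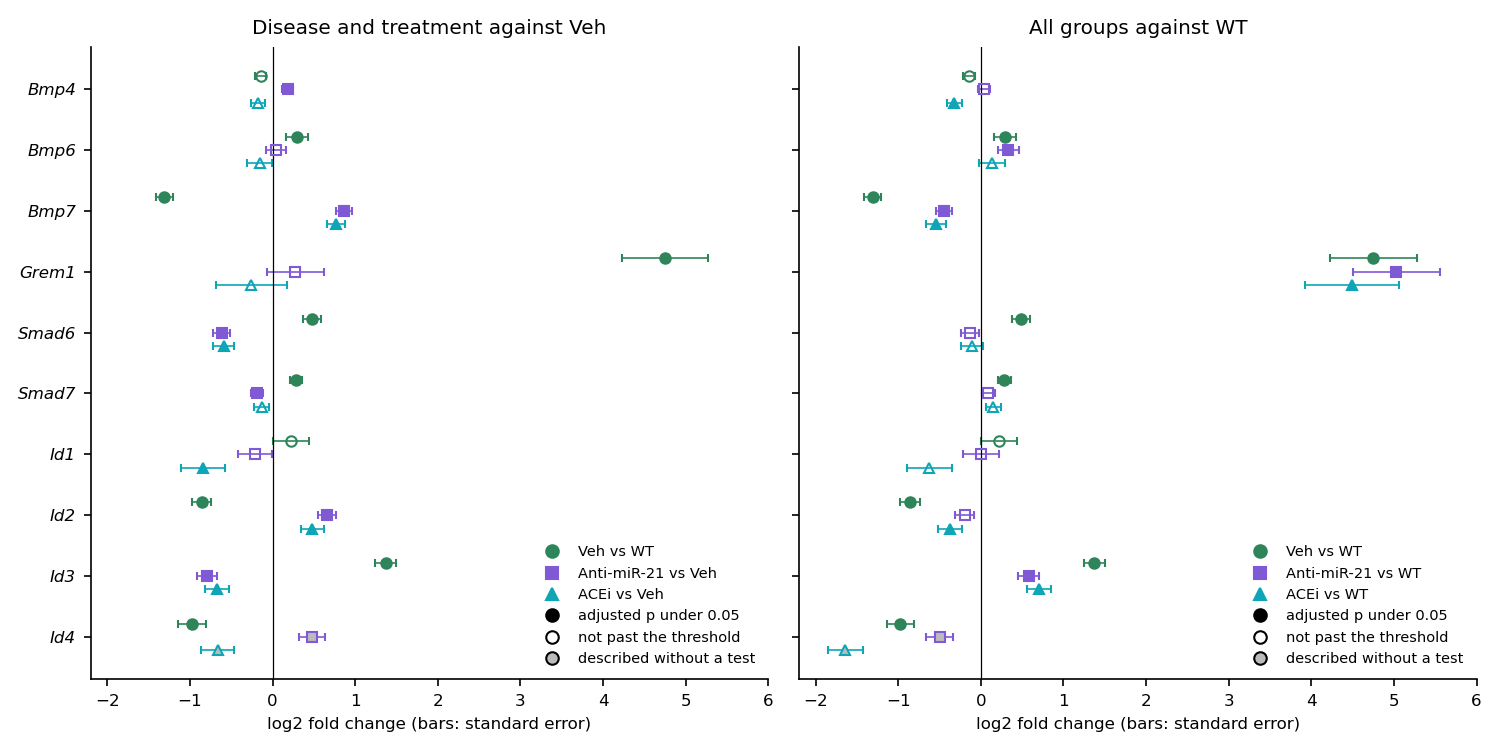
Log2 fold change of each gene with its standard error from edgeR, on the left for Veh against WT and each treatment against Veh, on the right for all 3 Col4a3-/- groups against WT. Filled symbols passed an adjusted p of 0.05, open ones did not, and grey ones mark Id4 in comparisons with treated mice, which were not tested; Bmp7, Smad6, Id2 and Id3 reverse direction between disease and treatment, Grem1 stays near 4.5 to 5.0 above WT in all groups, and Id4 lies at -0.50 under anti-miR-21 and -1.64 under ACEi from WT.

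Between the treatments, the values of the 10 genes are given without tests because that contrast chose Id4. Among all genes 0.584% were called there. Next to Id4, the log2 differences of Anti-miR-21 from ACEi were 0.63 (SE 0.26) for Id1, 0.53 (SE 0.43) for Grem1, 0.36 (SE 0.08) for Bmp4 and 0.20 (SE 0.15) for Bmp6. Bmp7, Smad6, Smad7, Id2 and Id3 lay between -0.13 and 0.18. The groups did not overlap for Id4, as its choice implies, or for Bmp4, Bmp6 and Id1 (8.99% of all genes), from which nothing is read. Of the 9 genes tested against WT, 4 were called under anti-miR-21 (43.7% of all genes), 3 of them higher (23.9%) and 1 lower (19.8%). Under ACEi 5 were called (47.7%), 2 of them higher (25.2%) and 3 lower (22.5%). Beside Id4, the ranges were apart from WT for Grem1 and Id3 under anti-miR-21 (23.8% of all genes) and for these and Bmp4 and Bmp7 under ACEi (46.1%). Bmp7, Grem1 and Id3 were called against WT under both treatments, with Bmp6 added under anti-miR-21 (log2 0.33, SE 0.13, adjusted p = 0.044) and Bmp4 (log2 -0.32, SE 0.09, adjusted p = 0.005) and Id2 under ACEi. The Bmp6 call was lost without any of the mice A2, A10, A14, A15, A17, A18 or A22 and within flow cell A (log2 0.11, adjusted p = 0.55). RLE scaling (adjusted p = 0.056) and flow cell as a term (adjusted p = 0.057) lost it as well. So did a fit of only the 2 groups compared (adjusted p = 0.059). With library totals alone the Bmp4 difference was -0.0064 (adjusted p = 0.95).

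Levels between genes were compared per length within a group, in the deposited FPKM, which relates fragments to exon length and library total. In WT mice Id2 led with 211.6 ± 42.2 FPKM (SD, n = 5), followed by Id3 with 39.1 ± 6.32 FPKM, and neither range touched the next. Bmp4 (19.5), Id1 (18.6), Bmp7 (15.0), Bmp6 (13.2) and Id4 (9.29 FPKM) came next, each overlapping its neighbour in the order. Smad7 (6.22) and Smad6 (4.26 FPKM) overlapped each other and lay below Id4, and Grem1 was last at 0.0421 FPKM. In Veh mice the ranges of Id2 (177.2 ± 16.2 FPKM, n = 6) and Id3 (154.6 ± 32.3 FPKM, n = 6) overlapped. Bmp7 dropped to 9.16 FPKM in Veh, behind Smad7 with 11.4 FPKM, with overlapping ranges. Under both treatments Id2 (198.9 to 242.3 FPKM with anti-miR-21 and 190.8 to 213.4 FPKM with ACEi) again stood clear of Id3 (59.3 to 83.8 and 73.9 to 85.5 FPKM). Id4, level with Smad7 under anti-miR-21 (7.82 and 7.83 FPKM), ranked below Smad6 under ACEi (3.73 and 4.91 FPKM) with overlapping ranges. The FPKM values are scaled by library total only, and the entries of Bmp4 and Id4 are marked by the authors as confounded with other genes. Those of Grem1 lay far below what its counts imply, so its place in the order of the Col4a3-/- groups is uncertain.

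**Figure D3:**
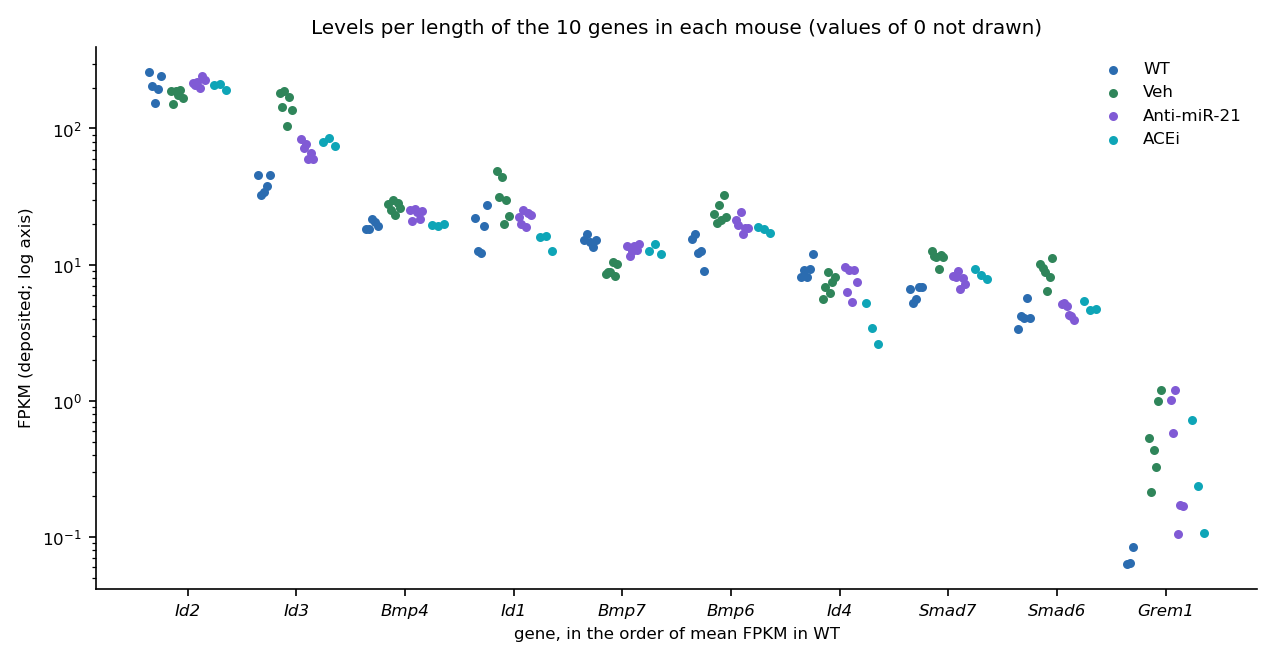
Deposited FPKM of the 10 genes in each mouse on a log axis, in the order of their WT means, with 1 point per mouse coloured by group. The Grem1 points of Col4a3-/- mice lie far below what its counts imply. Id2 leads in WT at 211.6 FPKM and Grem1 is last; its 2 WT mice at 0 cannot be drawn on this axis, and the order of genes within a group, not a gene's change between groups, is what this scale shows.

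Other genes of the BMP pathway were more often called higher than lower in disease. Of 61 listed genes 52 passed the filter, and 35 of these were called higher and 12 lower in Veh against WT (39.0% of all genes were called higher and 34.0% lower, the shares to set beside each role below), with a median log2 fold change of 0.64 against 0.07 over all genes. Against Veh, 31 were called lower (30.5% of all genes) and 10 higher (28.8%) under anti-miR-21, with a median of -0.40 (all genes -0.04), and 19 lower (19.1%) and 6 higher (21.0%) under ACEi, with a median of -0.21 (all genes -0.05). Between the treatments edgeR called 0 of the 52, with 9 at an unadjusted p under 0.05, and DESeq2 called 1, the Smad co-repressor Skil, named after its value was seen (log2 -0.34 in Anti-miR-21 against ACEi, adjusted p = 0.038). With library totals alone 40 were higher and 3 lower in Veh, 37 lower and 4 higher under anti-miR-21, and 31 lower and 2 higher under ACEi. The medians were then 1.22, -0.74 and -0.48, beside 0.65, -0.38 and -0.32 over all genes.

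Among other ligands, 5 of 6 measured genes rose in Veh and none fell. Bmp3, a ligand known to oppose other BMPs, rose by 2.14 on the log2 scale (adjusted p = 2.1e-07), with 1.96 ± 0.93 CPM in WT (SD, n = 5) and 8.62 ± 2.20 CPM in Veh (SD, n = 6), and Bmp2 rose by 1.55 (adjusted p = 2.2e-06). Gdf6 rose by 3.95 (adjusted p = 7.6e-07), although its level stayed below 1 CPM on average, at 0.968 CPM. All 3 fell under both treatments, Bmp3 with -1.86 under anti-miR-21 (adjusted p = 1.3e-06) and -1.15 under ACEi (adjusted p = 0.0035), the opposite direction to Bmp7.

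Of the receptors and co-receptors, 8 of 10 measured genes rose and 2 fell. The endothelial type I receptor Acvrl1 rose by 1.13 (adjusted p = 2e-09) and the co-receptor Rgma by 1.42 (adjusted p = 3.5e-09), whereas the type II receptor Acvr2b fell by 1.49 (adjusted p = 1.4e-07), from 3.88 to 1.38 CPM. Of the signalling Smads and their regulators, 6 rose and 4 fell. Smad1, which carries the BMP signal, rose 1.25 (adjusted p = 6e-10) and Smurf1, a ubiquitin ligase that removes Smad1 and Smad5, rose 1.004 (adjusted p = 3.1e-09), while Tob1, a repressor of Smad activity, fell by 1.15 (adjusted p = 7.4e-09). In both treated groups these 3 genes lay between their WT and Veh levels. Smad1 differed from Veh by -0.68 under anti-miR-21 (adjusted p = 2.7e-06) and by -0.55 under ACEi (adjusted p = 0.00074).

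The extracellular antagonists and modulators split, with 9 of 17 rising and 6 falling. Fstl1, a BMP-binding glycoprotein of stromal cells, rose by 2.99 on the log2 scale (adjusted p = 2.4e-11), with 23.01 ± 6.70 CPM in WT (SD, n = 5) and 182.5 ± 17.3 CPM in Veh (SD, n = 6). Nbl1, an antagonist of the same family as gremlin, rose by 2.78 (adjusted p = 1.2e-08). Both fell under anti-miR-21, with log2 fold changes of -1.40 (adjusted p = 3.9e-07) and -1.78 (adjusted p = 3.1e-06), and under ACEi, with -1.01 (adjusted p = 0.00055) and -1.67 (adjusted p = 0.00032). Chrdl1, a chordin-like antagonist of BMP4, fell by 2.91 in Veh (adjusted p = 1.2e-09) and rose under both treatments. Sostdc1, known as a tubular antagonist of Bmp7, fell from 113.9 to 73.8 CPM (log2 -0.63, adjusted p = 0.00011), and differed by -0.04 with library totals alone.

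Of other target genes, 4 of 6 rose and none fell, led by the osteogenic factor Runx2 (log2 1.99, adjusted p = 1.1e-08), Atoh8 (0.80, adjusted p = 5.5e-05) and Hey1 (0.62, adjusted p = 0.008). All 3 bHLH partners of Id proteins rose, Tcf4 by 0.80 (adjusted p = 9.9e-09), Tcf3 by 0.78 (adjusted p = 4.1e-08) and Tcf12 by 0.59 (adjusted p = 2.5e-06). Under anti-miR-21 these partners fell, with log2 fold changes of -0.42, -0.52 and -0.32 (adjusted p = 5.2e-05, 9.6e-06 and 0.002). Under ACEi they differed from Veh by -0.325, -0.473 and -0.209, and 2 of the 3 were called lower. In Veh, Tcf3 thus reached 69.0 ± 6.84 CPM (SD, n = 6), up from 40.2 ± 3.15 CPM (SD, n = 5), in the mice in which Id3 was high and Id2 and Id4 were low.

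**Figure D4:**
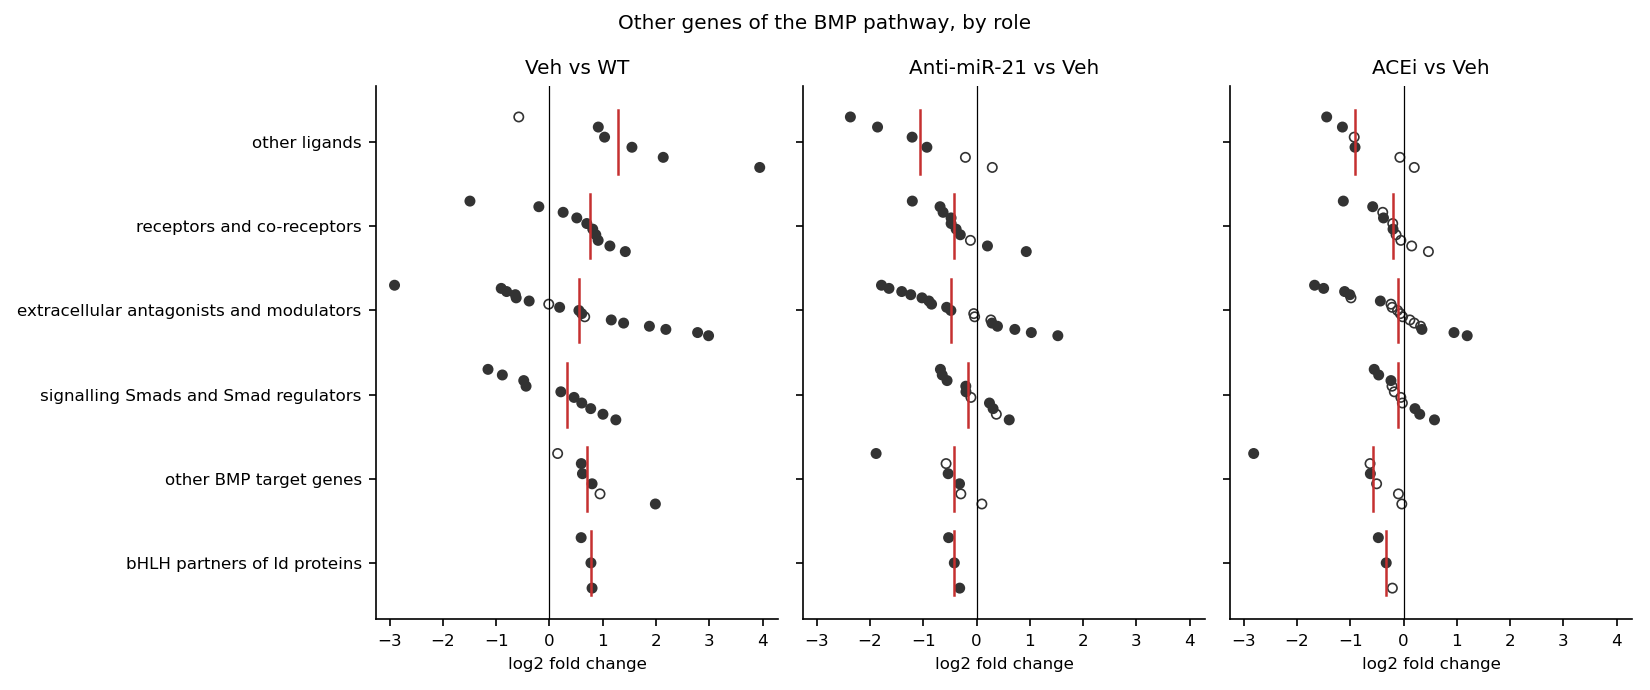
Log2 fold change of the 52 other BMP pathway genes that passed the filter, by role, in Veh against WT and in each treatment against Veh. Each circle is 1 gene, filled where the adjusted p was under 0.05, and the red line is the median of its list; the medians lie above 0 in Veh against WT (0.34 to 1.29) and below 0 under both treatments.

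The genes most like Id4 across the 20 mice, by Pearson's r of log2 CPM over 17621 genes, were Mfrp (r = 0.93), Slc6a17 (0.90) and Pou3f3 (0.88), the last a transcription factor of the developing nephron. Mfrp had a mean of 2.30 CPM in WT, 0.530 in Veh, 1.21 under anti-miR-21 and 0.228 in ACEi mice. It shares the order of groups with Id4, for likeness to which it was picked over these same mice. After subtraction of group means, r with Id4 was 0.74, 0.83 and 0.80. The genes most like Bmp7 were Dlat (r = 0.99), Dld (0.99) and Pdha1 (0.99), which encode subunits of the mitochondrial pyruvate dehydrogenase complex, with r of 0.94, 0.89 and 0.90 after subtraction. Dlat was at 191.9 CPM in WT, 76.6 in Veh, 135.9 under anti-miR-21 and 121.2 CPM under ACEi. The mice share these groups, so the values are descriptions and carry no p.

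Cell-type markers moved beside the 10 genes. The summed level of 5 proximal tubule markers had medians of 11000 CPM in WT, 1772 in Veh, 6622 under anti-miR-21 and 5678 CPM under ACEi, the same order as for Bmp7 and Id2, and all 5 markers were lower in Veh than in WT. Summed fibroblast markers ran the other way, at 200.5, 1695, 622.0 and 881.7 CPM, the same order as for Id3, with all 5 higher in Veh. Summed markers of tubule injury were at 29.4, 986.5, 391.2 and 607.7 CPM, again in the order of Id3. Summed endothelial markers had similar medians, at 245.6, 249.3, 271.6 and 261.3 CPM, but single markers moved. Of the 5, 2 were called higher and 1 lower in Veh against WT, with log2 fold changes from -0.78 to 0.66. Against WT, 3 were called higher under anti-miR-21 and 2 under ACEi, and none lower. WT mouse A18, with the highest WT values of Id1, Id4 and Smad7 and the lowest of Bmp6, had only 99.3 CPM of summed endothelial markers. A18 was also the lowest WT mouse for podocyte (195.4 CPM), fibroblast (111.3 CPM), proximal tubule (9634 CPM), T cell and B and plasma cell markers. For tubule injury markers it was the highest WT mouse (35.4 CPM). The other lists moved as well. In the order WT, Veh, Anti-miR-21 and ACEi, median sums were 6435, 2874, 5570 and 4734 CPM for thick ascending limb markers and 1277, 464.3, 893.1 and 691.1 CPM for distal tubule markers. Both were lowest in Veh and ranked the groups as Bmp7 and Id2 did. Single distal tubule markers differed, with 4 called lower and 1 higher in Veh against WT. In ACEi against Veh, 3 of them were called higher and 1 lower. Collecting duct markers were at 896.1, 481.7, 540.7 and 658.5 CPM and podocyte markers, lowest in WT, at 250.2, 374.1, 447.8 and 423.5 CPM. Macrophage markers were at 134.5, 669.6, 316.7 and 367.4 CPM, T cell markers at 1.90, 18.9, 9.35 and 17.3 CPM and those of B and plasma cells at 11.2, 43.9, 13.4 and 32.7 CPM. All were highest in Veh and ranked the groups as Id3 did. Erythroid markers were at 1291, 80.8, 844.1 and 457.1 CPM, also in the order of Bmp7 and Id2, and adipocyte markers at 9.02, 187.1, 19.9 and 5.28 CPM. No marker of these lists was at 0 in all mice of a group. The part of these cell types in the levels of the BMP genes was not tested.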

How the data were processed

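Kidney RNA of 20 mice was sequenced as paired-end reads. Reads were mapped by the authors to GRCm38 with OmicSoft's aligner, who deposited estimated counts (expected counts) per Ensembl gene, without normalization, of which 27.9% of the positive values were not whole. FPKM values were deposited for 33368 entries, mostly on UCSC genes, and 3 FPKM columns that match no mouse here were not used. Whether counting used strand is not given in the sources used here. Counts were rounded, filtered with filterByExpr (minimum count 10, minimum total 15), scaled by TMM and fitted in edgeR 4.0.16 (R 4.3.3) on all 20 mice with 1 coefficient for each group. The quasi-likelihood test was used, with p-values adjusted by Benjamini-Hochberg and a threshold of 0.05. A standard error is the log2 fold change divided by the root of F, and intervals are at 95%. Groups came from the group label. The labels do not say that mice came from separate litters, so that p-values measure the spread between these mice.

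The 10 genes and all lists were chosen with earlier results of these data known. Genes named beside them were Col4a3, Sostdc1, up to 3 genes per pathway list with the largest called change in Veh against WT, and the 3 genes most like Id4 and Bmp7. Lists of 5 markers each were used for adipocytes, podocytes, proximal tubule, thick ascending limb, distal tubule, collecting duct, endothelium, fibroblasts, macrophages, T cells, B and plasma cells, erythroid cells and tubule injury. Alternatives were DESeq2 1.42.0, 3 other scalings, 2 other filters, flow cell as a term or flow cell A alone, only the groups compared, limma 3.58.1 on log2(FPKM + 1) or log2(FPKM + 0.1), and each mouse left out. Leaving out the 4 mice with over 100 CPM of adipocyte markers was added after seeing the data. Tests were checked on simulated counts. Plots used matplotlib 3.10.9 with pandas 2.3.3, numpy 2.4.6 and Python 3.11.15.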

Additional observations from a re-analysis of the deposited data

Results flagged for a closer look

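In 30 groups of 5 or 6 mice, 2 held a mouse far from the others by the gap between its value and the next, relative to the range of the group, and chance alone marks about 1 in 20 such groups. Smad6 in WT mouse A17 was at 19.7 CPM, against 12.7 to 14.7 CPM in the other 4 WT mice. Id4 in WT mouse A18 was at 24.2 CPM, against 16.6 to 17.8 CPM in the other 4.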

How the results depend on the processing

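Among tested log2 differences of the 10 genes, without one mouse at a time 429 kept their direction and side of the threshold, 28 lost a call, 5 gained one and 8 changed sign. Under the other alternatives 455 kept both, 37 lost a call, 37 gained one and 37 changed sign. Of the differences given without a test, 1 changed sign in each kind of alternative, and 6 values of Id4 moved by more than the spread. Scaling by library totals and FPKM, which is scaled in that way, gave most changes of sign, and depth limited Grem1 in WT, with at most 15 counts a library.

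Bmp4 in Veh against WT turned to 0.44 with library totals, 0.44 with log2(FPKM + 1), also after the FPKM filter, and 0.45 with log2(FPKM + 0.1). In the same order of settings, Bmp4 under anti-miR-21 against Veh turned to -0.17, -0.17 and -0.17, Bmp6 to -0.30, -0.28 and -0.30, and Grem1 to -0.047, -0.093 and -0.36. Against WT, Smad6 turned to 0.11, 0.10 and 0.13 under anti-miR-21 and to 0.20, 0.18 and 0.22 under ACEi, and Id2 under anti-miR-21 to 0.046, 0.0703 and 0.0707. Bmp4 in ACEi against WT came to 0.0023 and 0.0025 with the FPKM settings. Bmp6 under anti-miR-21 against Veh was -0.038 with upper-quartile scaling and -0.0604 in flow cell A. Id1 under anti-miR-21 against WT was -0.0192 with DESeq2 and -0.019 with RLE factors. Smad6 between the treatments was 0.034 with flow cell as a term. Without the 4 mice high in adipocyte markers Id1 was -0.20 in Veh against WT and 0.26 under anti-miR-21 against Veh.

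Leaving out single mice gave -0.12 to 0.19 for Id1 under anti-miR-21 against WT, -0.0043 to 0.14 for Bmp6 against Veh, -0.0027 to 0.088 for Bmp4 against WT and -0.054 to 0.024 for Smad6 between the treatments. The share of all genes tested that was called between the treatments, 0.584%, was 2.48% with DESeq2, 0.243% without a filter, 1.12% with at least 10 counts in every mouse, 0.28% with log2(FPKM + 0.1) and 0.365% without the adipocyte-rich mice, and 0.117% (without A23) to 1.22% (without A8) without single mice. The count in ACEi against Veh, 7074, was 4614 without the adipocyte-rich mice. The cause of these changes was not tested, other than that fewer mice or genes entered some of these fits. No paired analysis was possible because the groups hold different mice and the labels do not match mice between groups. The fit within flow cell A could not be made for ACEi, which has 1 library there.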
